A study of Mus musculus with 6 samples.

Results

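The genes that encode respiratory complex I were examined in primary mouse microglia with and without a functional Fosb gene. A gene was included when a probe set carried a single platform symbol beginning with Nduf. These were 48 of the 35557 probe sets, for 43 genes. For the 5 genes with a second probe set, the one with the higher mean signal was used. A further 3 probe sets named several genes and were left out. Fosb encodes FosB, a transcription factor of the AP-1 family that is induced by stimulation. The fosB-null cultures (3 arrays) came from mice homozygous for the null allele fosBG, which had been crossed back to C57BL/6J for 20 generations. The wild-type cultures (3 arrays) came from C57BL/6J mice, which are not stated to be littermates. Both were grown from cerebral cortex of pups aged 2 days, collected after 10 days in culture and kept for 24 h after replating, with no further treatment. As a germline allele it is carried by all cells of the animal, and the sex and number of pups per culture are not given. Each value is the log2 signal of a probe set over a whole culture, so less RNA per cell and fewer cells of a type cannot be told apart.

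Complex I, or NADH:ubiquinone oxidoreductase, is the largest enzyme of the mitochondrial respiratory chain. It passes electrons from NADH to ubiquinone and pumps protons across the inner membrane. A matrix arm holds the flavin and the iron-sulfur clusters, and a membrane arm holds the pumps, whose core subunits are encoded by mitochondrial DNA. Around the core sit accessory subunits, and the enzyme is put together in modules by dedicated assembly factors. In macrophages, microglia among them, the balance between respiration and glycolysis is known to shift with activation, and complex I is also a source of reactive oxygen species. The mitochondrially encoded subunits were not analysed here.

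Fosb itself, measured by a probe set that may lie outside the mutated stretch, was 8.01, 8.14 and 7.92 in wild-type and 7.82, 8.05 and 7.83 in fosB-null arrays. It was lower in each pair, the groups overlapped, and it does not check the labels. Several properties of the arrays bear on every value that follows. Between arrays of the same replicate number, 45.2% to 51.3% of probe set values were identical, while arrays of different number shared at most 3. Differences are therefore also given within same-numbered pairs, while the main limma fit leaves the pairing out. A difference of 0 in a pair is an exact tie, not a measurement of equality. Array medians ran from 7.76 to 7.92. Of 9 measured microglial markers, 6 (Cx3cr1, Itgam, Csf1r, Trem2, Tyrobp and C1qa) had means above 95% or more of tested probe sets. The other 3 were dimmer, with Aif1 above 69.2%, Tmem119 above 62% and P2ry12 above 59.6%. Means were higher in the fosB-null group for 8 of the 9 and lower for Trem2. Their median difference was 0.0245, and Aif1 was higher in every pair. Their summed linear signal was 55711 to 62198 in wild-type and 56726 to 62047 in fosB-null arrays. All 6 astrocyte markers lay at or below the 52.8th percentile and were tied in all 3 pairs. Of 5 measured markers of the oligodendrocyte lineage, 4 were lower in fosB-null arrays, and their summed linear signal was 2016 to 2313 in wild-type and 1881 to 2082 in fosB-null arrays. The brightest of them, Mbp, lay above 71.9% of tested probe sets and was lower in every pair, with a difference of -0.21. Cspg4 differed by -0.20, lower in pairs 1 and 2 and higher in pair 3. Both lay farther from 0 than any complex I gene. Mog and Olig2 differed by -0.054 and -0.043, and Pdgfra was higher by 0.024. Of 6 markers of fibroblasts and mural cells, 4 were higher in fosB-null arrays, 0 lower and 2 equal. Their summed linear signal was 1223 to 1301 in wild-type and 1236 to 1344 in fosB-null arrays. Of 5 neuronal markers 1 was higher, 2 lower and 2 equal, with sums of 743 to 851 and 743 to 836. No marker gene of these lists passed limma at an unadjusted p under 0.05. The part of these marker shifts in the results below was not tested.

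No complex I gene differed between fosB-null and wild-type microglia at the adjusted threshold. With limma and Benjamini-Hochberg adjustment over 23410 probe sets, 0 of 43 genes had an adjusted p under 0.05, where 0.00427% of all tested probe sets did, and the adjusted p was 1 for each gene. At an unadjusted p under 0.05 there were also 0 of 43, where the share over all probe sets was 0.722%, and the lowest was 0.168. No member had groups that did not overlap, which 1.12% of all probe sets had. The differences were small, from -0.17 for Ndufb3 to 0.057 for Ndufs4. Standard errors were 0.062 to 0.24, and the 95% interval of each of the 43 differences, taken singly, lay within a 1.5-fold change in either direction. This fit left out the pairing, so its errors, intervals and p-values include the spread between replicate numbers. With the replicate number as a block, 5 of 43 had a limma unadjusted p under 0.05, where 2.31% of all probe sets did. As a random effect it gave 12, where 9.63% did, and both fits are described further on. The p-values measure the spread between these arrays, which the labels call biological replicates without saying which animals they came from.

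Most of these small differences had the same sign. The mean was lower in fosB-null arrays for 36 genes, higher for 4 and exactly equal for 3. That is 83.7% lower, where 41.3% of all tested probe sets were lower, 30.9% higher and 27.8% equal. The lower share was 52.7% among probe sets above the dimmest 40%, the part of the signal range that holds 42 of the 43 genes. The median difference was -0.027 on the log2 scale, with a median of 0.00 over all tested probe sets and -0.0025 over those above the dimmest 40%. In every one of the 3 pairs 13 genes were lower, or 30.2%, where 5.57% of all probe sets were, and 9.12% of those above the dimmest 40%. In every pair 0 genes were higher, where 2.20% of all probe sets were.

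Both shares depended on how the arrays were scaled. Median centring subtracts from each array its median over all probe sets. These medians were 7.762, 7.887 and 7.816 in wild-type and 7.793, 7.916 and 7.828 in fosB-null replicates 1, 2 and 3. Centring thus lowers every difference within a pair and turns exact ties into lower values by construction. After it 42 genes were lower and 1 higher, and 84.0% of all tested probe sets were lower too. After quantile normalization 32 genes were lower and 11 higher, or 74.4% lower, close to the 71.9% of all probe sets. For either rescaling, the share of lower means among the brighter probe sets is not given here. The count lower in every pair was 20 after quantile normalization, or 46.5%, where 43.6% of all probe sets were and 32.4% of those above the dimmest 40%. With that scaling the share of complex I genes was thus near that of all probe sets and above that of the brighter ones. After median centring it was 39, or 90.7%, where 69.5% of all probe sets were and 67.3% of the brighter ones. The median difference minus that of all tested probe sets was -0.027 as deposited and -0.017 with quantile normalization. With median centring it was also -0.027, which is fixed in advance, since centring moves all mean differences by the same amount. The count of lower genes also changed when single arrays were left out, to 21 without replicate 2 of the wild-type and 22 without replicate 3 of the fosB-null group. Leaving out both arrays of a pair gave 29 to 33. Leaving out 1 array leaves its replicate number in 1 group only, which moves the count by construction. The same holds for the differences of single genes given below without 1 array.

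**Figure D1:**
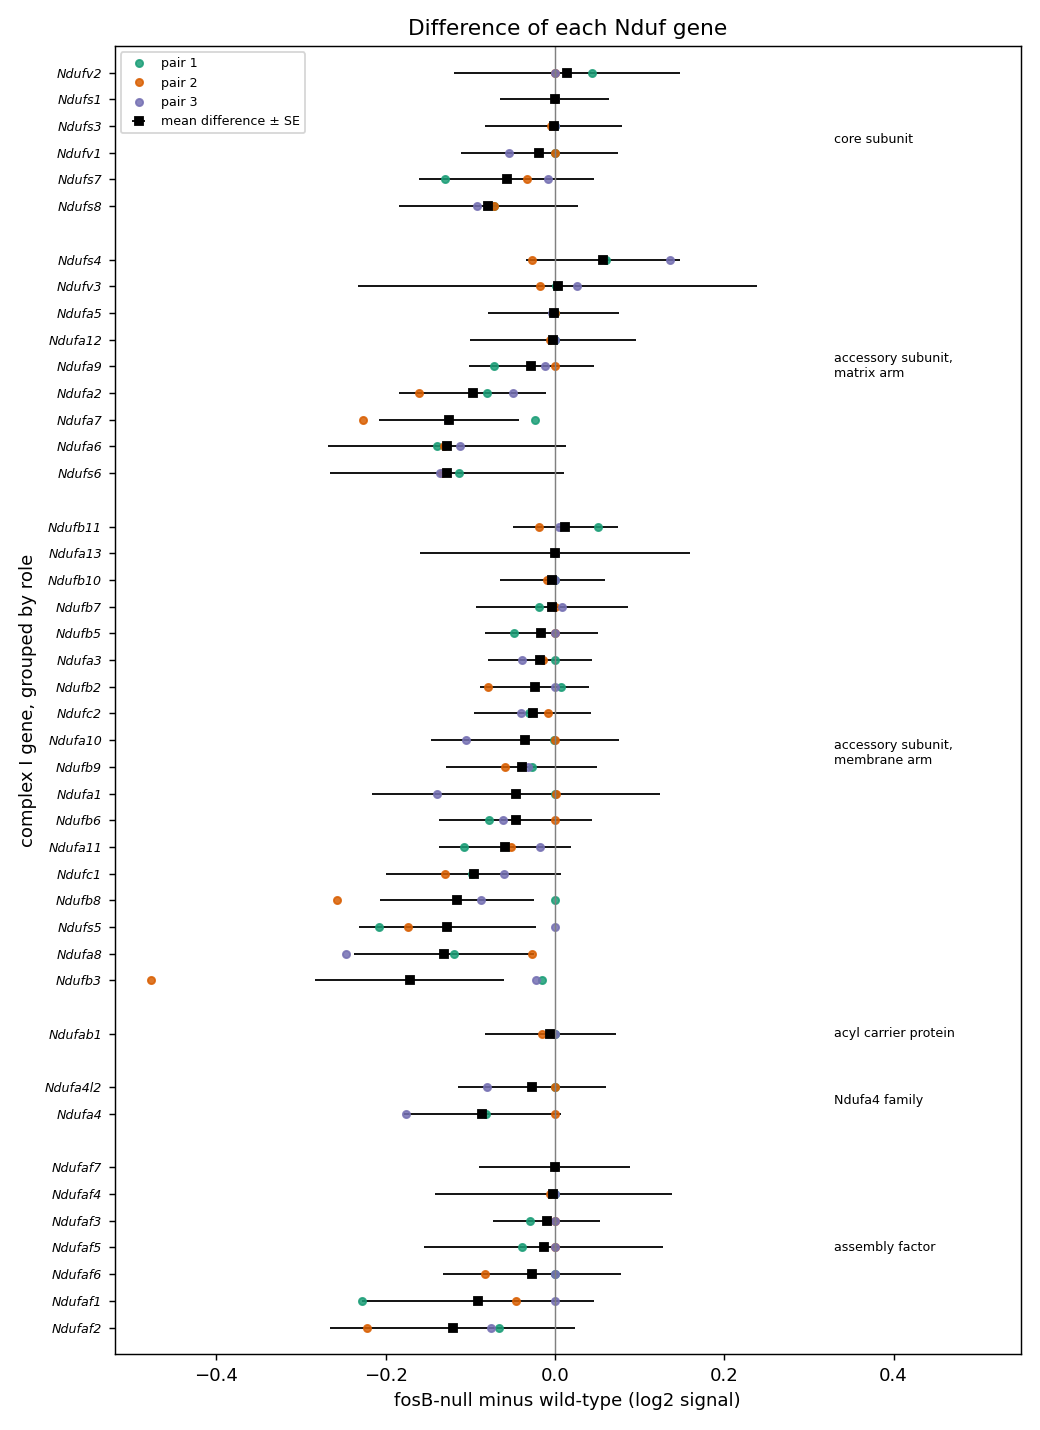
The difference between fosB-null and wild-type log2 signal (x axis) for each of the 43 Nduf genes (y axis, grouped by role), as deposited. Squares with bars are the mean difference with the standard error of the limma fit, and coloured points are the 3 same-numbered pairs. The values run from -0.17 to 0.057, and the single point farthest from 0 is Ndufb3 in pair 2.

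With the replicate number as a block, limma called 0 genes and the lowest adjusted p among members was 0.674. At an unadjusted p under 0.05 it gave 5 genes, all lower, or 11.6%, where 1.76% of all tested probe sets were lower at that threshold and 2.31% passed in either direction. The 5 were Ndufs6, Ndufa6, Ndufs8, Ndufc1 and Ndufb9, chosen here after their values were seen. The prior degrees of freedom of that fit were 0.358, so a few small and even differences reach a low p. As a random effect the replicate number gave 0 calls among members, where 0.201% of all probe sets were called, and a lowest adjusted p of 0.153. In that fit 12 members were lower at an unadjusted p under 0.05, or 27.9%, where 6.29% of all probe sets were.

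The promoters of 4 of these 5 genes are shown, which had the lowest p of all members in the fit with the replicate block. The table of promoters held none for Ndufb9. Each window covers 250 bases before to 50 after the RefSeq gene start in mouse build GRCm38.p6, on the minus strand, and capitals mark matches to the motifs named further on. They lie at chr13:73328433-73328732 for Ndufs6, chr15:82354242-82354541 for Ndufa6, chr19:3912725-3913024 for Ndufs8 and chr3:51408906-51409205 for Ndufc1.
Ndufs6: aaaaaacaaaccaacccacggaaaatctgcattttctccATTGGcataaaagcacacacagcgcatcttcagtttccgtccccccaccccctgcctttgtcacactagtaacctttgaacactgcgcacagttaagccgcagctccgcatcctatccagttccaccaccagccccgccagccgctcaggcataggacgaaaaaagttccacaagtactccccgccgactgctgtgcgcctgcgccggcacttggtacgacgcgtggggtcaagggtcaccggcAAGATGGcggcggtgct
Ndufa6: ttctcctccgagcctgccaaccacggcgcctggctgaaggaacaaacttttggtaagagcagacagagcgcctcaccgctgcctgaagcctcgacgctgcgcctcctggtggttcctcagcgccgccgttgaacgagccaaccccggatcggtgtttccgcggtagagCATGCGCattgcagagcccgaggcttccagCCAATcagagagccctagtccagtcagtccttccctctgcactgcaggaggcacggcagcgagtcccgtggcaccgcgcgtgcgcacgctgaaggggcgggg
Ndufs8: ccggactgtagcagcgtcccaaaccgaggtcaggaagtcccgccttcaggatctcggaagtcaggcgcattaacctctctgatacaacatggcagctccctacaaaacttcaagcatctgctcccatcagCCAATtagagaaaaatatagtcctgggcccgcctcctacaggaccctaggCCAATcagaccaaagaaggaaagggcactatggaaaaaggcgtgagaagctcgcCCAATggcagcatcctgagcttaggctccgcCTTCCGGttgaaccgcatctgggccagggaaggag
Ndufc1: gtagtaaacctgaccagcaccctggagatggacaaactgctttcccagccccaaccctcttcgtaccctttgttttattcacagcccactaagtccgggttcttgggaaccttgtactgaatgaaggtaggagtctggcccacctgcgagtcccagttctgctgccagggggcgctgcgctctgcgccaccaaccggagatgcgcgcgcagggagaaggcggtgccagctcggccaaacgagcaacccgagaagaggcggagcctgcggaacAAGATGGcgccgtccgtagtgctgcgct

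The windows differ in the motifs they hold. A YY1 core (AAGATGG) starts 33 bases after the start of Ndufs6 and 22 bases after that of Ndufc1. The window of Ndufa6 has an NRF-1 core (GCGCATG, here on the opposite strand as CATGCGC) 82 bases before the start and a CCAAT box 52 bases before it. That of Ndufs8 has 3 CCAAT boxes, 120, 70 and 16 bases before the start, and an ETS core (CCGGAAG, on the opposite strand) 15 bases after it. Ndufs6 also has a CCAAT box on the opposite strand, written ATTGG, 211 bases before the start. None of the 4 windows holds a TATA box (TATAAA).

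NRF-1, GABP of the ETS family and YY1 are textbook regulators of nuclear genes for respiratory proteins. A RefSeq promoter was found for 38 of the 43 genes. Searching both strands, the NRF-1 core GCGCATG occurred in 7 of 38, or 18.4%, beside 4.41% of all 27025 genes with a promoter in the table. The YY1 core AAGATGG also occurred in 7, or 18.4%, beside 7.28% of all genes. The ETS core CCGGAAG occurred in 5, or 13.2%, beside 9.93%. CCAAT occurred in 12, or 31.6%, beside 41.1%, and TATAAA in 4, or 10.5%, beside 15.7%. None of these 5 motifs contains another. Among the 11 genes with a promoter that were lower in every pair, 3 held the NRF-1 core, 3 the YY1 core, 1 the ETS core, 6 CCAAT and 2 TATAAA. Among the other 27 these counts were 4, 4, 4, 6 and 2, in the same order. A match is a run of letters and not a measured binding site.

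Core subunits carry the electrons and form the catalytic heart of the enzyme. Of the 6 measured, 4 were lower, 1 was higher and 1 was equal in all pairs, with a median difference of -0.0098. Ndufs8, which carries iron-sulfur clusters on the way to ubiquinone, had signals of 11.64, 11.75 and 11.48 in wild-type replicates 1, 2 and 3 and of 11.57, 11.67 and 11.39 in fosB-null replicates. Each fosB-null array lay 0.071 to 0.092 below its partner, but the groups overlapped, since the replicates within a group spread over a wider range. The mean difference was -0.078 with a standard error of 0.11 (limma unadjusted p = 0.484, and 0.00325 with the replicate block). The difference was -0.017 without replicate 2 of the wild-type and -6.67e-05 without replicate 3 of the fosB-null group, and with both arrays of a replicate left out it stayed between -0.082 and -0.072.

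Ndufs7, whose product holds the last iron-sulfur cluster before ubiquinone, was 13.07, 12.85 and 12.76 in wild-type and 12.94, 12.82 and 12.75 in fosB-null arrays. It was lower in each pair, by 0.13 in pair 1 and by less in the others, and its groups overlapped (difference -0.057, standard error 0.10, limma unadjusted p = 0.598). Ndufv1, the subunit that binds flavin and NADH, was 10.51, 10.68 and 10.49 in wild-type and 10.51, 10.68 and 10.44 in fosB-null arrays. It was tied in pairs 1 and 2. Its iron-sulfur partner Ndufv2 was 11.71, 12.02 and 11.66 in wild-type and 11.75, 12.02 and 11.66 in fosB-null arrays, so its difference of 0.015 came from pair 1 alone.

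Ndufs3, a subunit near the ubiquinone site, was 11.57, 11.58 and 11.43 in both groups to 2 decimals, with a difference of -0.0015. Ndufs1, the largest iron-sulfur subunit of the matrix arm, was 9.90, 9.94 and 9.87 in both groups and exactly tied in all 3 pairs. A second Ndufs3 probe set gave a difference of -0.0084.

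Accessory subunits of the matrix arm surround the core without taking part in catalysis. Of 9 genes 7 were lower and 2 higher, with a median of -0.028. Ndufs6, a zinc-binding subunit needed late in assembly, was 10.12, 10.36 and 9.96 in wild-type and 10.003, 10.22 and 9.83 in fosB-null arrays. The pair differences were -0.11, -0.13 and -0.14, for a mean of -0.13 with a standard error of 0.14 (limma unadjusted p = 0.386, and 0.00128 with the replicate block). Ndufa6, a small protein that anchors an acyl carrier protein to the matrix arm, was 10.71, 10.95 and 10.54 in wild-type and 10.57, 10.82 and 10.42 in fosB-null arrays. It was also lower by a like amount in each pair, with a mean of -0.13 and a standard error of 0.14 (limma unadjusted p = 0.396, and 0.00154 with the replicate block). For both genes replicate 2 was highest and replicate 3 lowest in each group, and the groups overlapped. Without wild-type replicate 2 the differences were -0.022 for Ndufs6 and -0.018 for Ndufa6, and without fosB-null replicate 3 they were -0.032 and -0.038. Leaving out either array breaks a pair, so with this order of replicates the differences shrink by construction.

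Ndufa7 was 10.68, 10.74 and 10.59 in wild-type and 10.66, 10.51 and 10.46 in fosB-null arrays. Only fosB-null replicate 1 lay inside the wild-type range (difference -0.13, standard error 0.083, limma unadjusted p = 0.174). Ndufa2, which has a thioredoxin-like fold, was 11.70, 11.80 and 11.55 in wild-type and 11.62, 11.64 and 11.50 in fosB-null arrays, lower in each pair and overlapping between groups (difference -0.097, standard error 0.087, limma unadjusted p = 0.303).

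Ndufs4, an accessory subunit whose loss causes a mitochondrial encephalopathy in mice, had the largest difference above 0. It was 11.64, 11.81 and 11.53 in wild-type and 11.70, 11.78 and 11.66 in fosB-null arrays. It was higher in pairs 1 and 3 and lower in pair 2, so no direction was shared (difference 0.057, standard error 0.091, limma unadjusted p = 0.555), and without wild-type replicate 3 the difference was -0.0093. Ndufv3 was 9.52, 10.14 and 9.48 in wild-type and 9.52, 10.13 and 9.50 in fosB-null arrays. Its standard deviation of 0.37 over wild-type arrays was the largest of all members and came from replicate 2, which stood apart in both groups. The other matrix arm genes, Ndufa5, Ndufa9 and Ndufa12, differed by -0.0012, -0.028 and -0.0020.

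**Figure D2:**
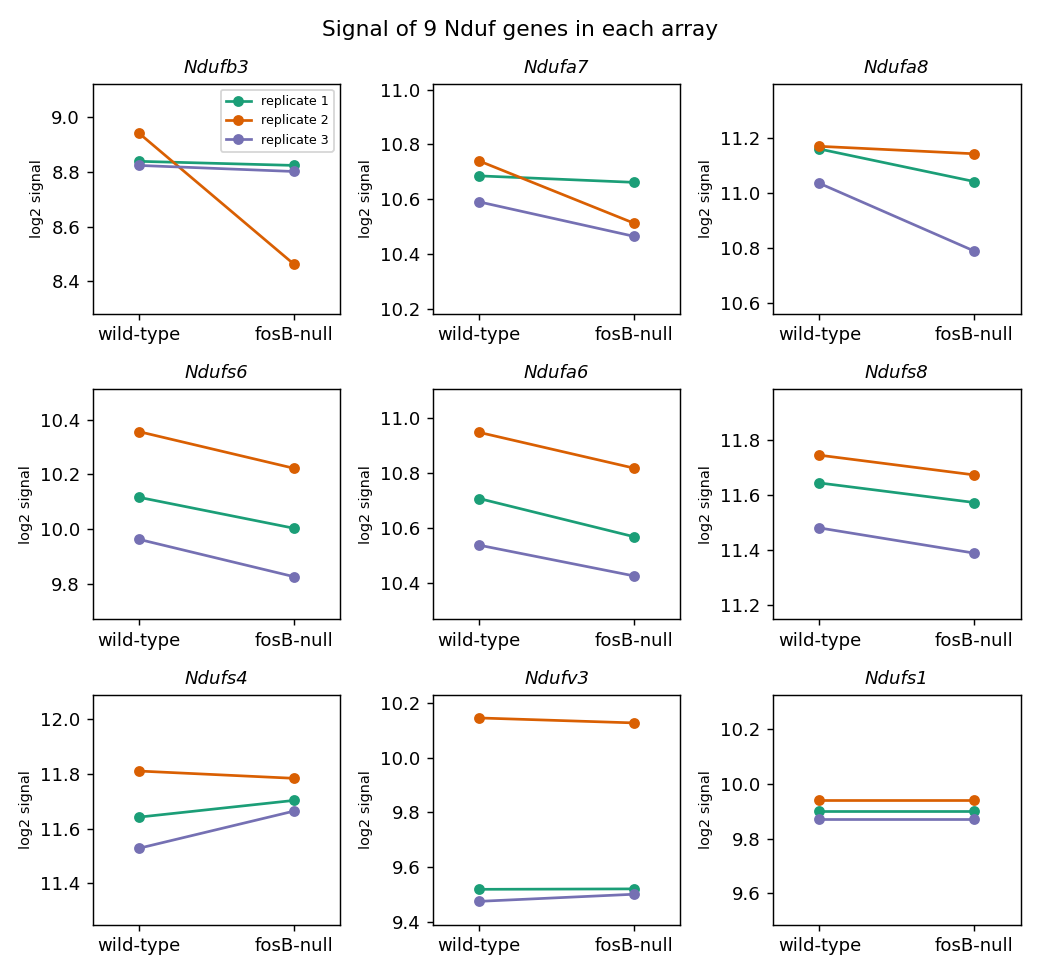
Log2 signal (y axis, the same span in each panel) of 9 Nduf genes in wild-type and fosB-null arrays, with lines joining arrays of the same replicate number. Ndufs6, Ndufa6 and Ndufs8 run nearly parallel downward, Ndufb3 differs mainly in replicate 2, and Ndufs1 is tied in all 3 pairs. Ndufv3 separates replicate 2 from the other two in both groups.

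Accessory subunits of the membrane arm were lower for 16 of 18 genes, with 1 higher and 1 equal, and a median of -0.037. Ndufb3, a small subunit of this arm, had the most negative difference of all members, but 1 array set it. Its signal was 8.84, 8.94 and 8.82 in wild-type and 8.82, 8.46 and 8.80 in fosB-null arrays. Only fosB-null replicate 2 stood clearly below, by 0.48 from its partner (difference -0.17, standard error 0.11, limma unadjusted p = 0.168). Without that array the difference was -0.055.

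Ndufb8, a subunit often used as a marker of intact complex I, was 10.74, 10.86 and 10.63 in wild-type and 10.74, 10.60 and 10.54 in fosB-null arrays. It was tied in pair 1 (difference -0.12, standard error 0.091, limma unadjusted p = 0.246). Ndufa8 and Ndufs5 are cysteine-rich proteins of the intermembrane space side. Ndufa8 was 11.16, 11.17 and 11.04 in wild-type and 11.04, 11.14 and 10.79 in fosB-null arrays, lower in each pair and most in pair 3 (difference -0.13, standard error 0.11, limma unadjusted p = 0.258). Ndufs5 was 9.21, 9.26 and 8.94 in wild-type and 8.999, 9.09 and 8.94 in fosB-null arrays, tied in pair 3 (difference -0.13, standard error 0.10, limma unadjusted p = 0.265). Without wild-type replicate 3 its limma unadjusted p was 0.0430 and its adjusted p 1.

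Ndufc1 was 11.18, 11.31 and 11.01 in wild-type and 11.09, 11.19 and 10.95 in fosB-null arrays. It was lower by 0.060 to 0.13 in the pairs (difference -0.096, standard error 0.10, limma unadjusted p = 0.387, and 0.0245 with the replicate block). Its second probe set was lower in pair 1, tied in pair 2 and higher in pair 3, so the 2 probe sets did not show one pattern. Ndufb9 was 11.22, 11.37 and 11.15 in wild-type and 11.20, 11.31 and 11.11 in fosB-null arrays, lower by 0.059 at most (limma unadjusted p = 0.674, and 0.0366 with the replicate block). Ndufa11 and Ndufc2 were lower in every pair as well, with mean differences of -0.059 and -0.026. The second Ndufa11 probe set was tied in all 3 pairs.

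Ndufa13, also known as GRIM-19, was 11.12, 11.12 and 10.71 in both groups and tied in all 3 pairs. Its standard deviation of 0.24 within a group was the second largest among wild-type arrays and lay in replicate 3. Ndufb11, encoded on the X chromosome, was the only membrane arm gene with a mean above wild-type, by 0.012, which became -0.012 with median centring. Its second probe set differed by -0.033. The X-linked Ndufa1 differed by -0.046, from pair 3 alone apart from 0.00080 in pair 2. The remaining genes, Ndufa3, Ndufa10, Ndufb2, Ndufb5, Ndufb6, Ndufb7 and Ndufb10, differed by -0.046 to -0.0030.

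Ndufab1, the mitochondrial acyl carrier protein found in both arms, differed by -0.0052, and its second probe set was tied in all pairs. Ndufa4 was first described in complex I and is now assigned to cytochrome c oxidase. It was 10.47, 10.60 and 10.50 in wild-type and 10.39, 10.60 and 10.32 in fosB-null arrays, tied in pair 2 (difference -0.086, standard error 0.093, limma unadjusted p = 0.386). Its hypoxia-inducible paralog Ndufa4l2 was 7.12, 7.27 and 7.12 in wild-type and 7.12, 7.27 and 7.04 in fosB-null arrays. It was tied in pairs 1 and 2, and it was the 1 member within the dimmest 40% of probe sets, with a mean above 32.0% of them.

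Assembly factors build the modules and leave before the enzyme is complete. Of 7 measured, 6 were lower and 1 equal, with a median of -0.013. Ndufaf2, a paralog of Ndufa12 that binds a late intermediate, was 8.52, 8.67 and 8.21 in wild-type and 8.46, 8.45 and 8.14 in fosB-null arrays. It was lower in each pair and overlapped between groups (difference -0.12, standard error 0.14, limma unadjusted p = 0.431). Ndufaf1, which acts early on the membrane arm, was lower by 0.23 in pair 1 and by 0.045 in pair 2 and was tied in pair 3. Ndufaf3 and Ndufaf4, which work together on the ubiquinone module, differed by -0.0098 and -0.0019. Ndufaf5, a hydroxylase of Ndufs7, and Ndufaf6 differed by -0.013 and -0.027. Ndufaf7, a methyltransferase that acts during assembly, was tied in all pairs.

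The members varied more between replicate numbers than between genotypes. The wild-type standard deviation was larger than the size of the difference for 38 of 43 genes, and its median was 0.105. The mean of a pair was highest in replicate 2 for 36 genes and lowest in replicate 3 for 33. Averaged over the 43 genes, the deviation from the 6-array mean was 0.0013, 0.13 and -0.068 in wild-type replicates 1, 2 and 3 and -0.037, 0.076 and -0.11 in fosB-null replicates. Over all tested probe sets these values were -0.050, 0.072 and -0.014 in wild-type and -0.050, 0.071 and -0.029 in fosB-null arrays. Both sets were highest in replicate 2. The fosB-null mean of the 43 genes lay 0.039, 0.058 and 0.037 below its partner in pairs 1, 2 and 3.

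**Figure D3:**
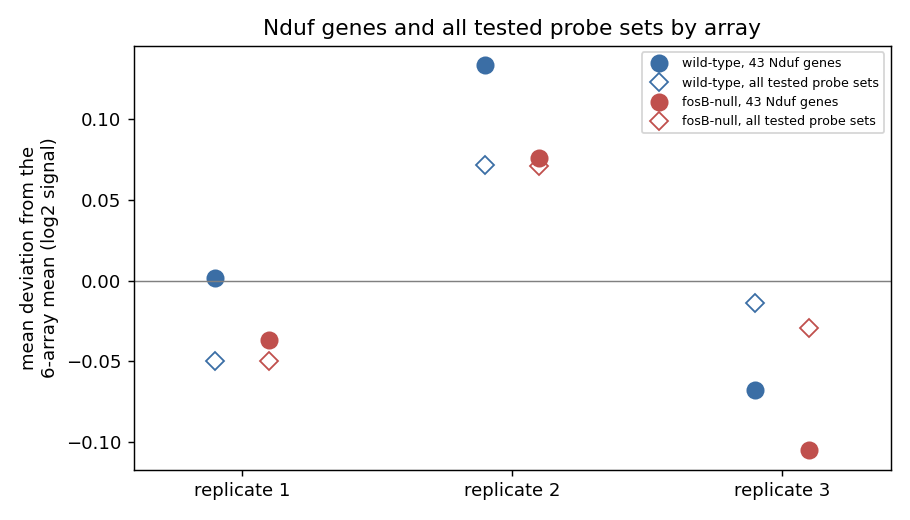
Mean deviation of each array from the 6-array mean (y axis, log2 signal) by replicate number (x axis), for the 43 Nduf genes (filled circles) and all tested probe sets (open diamonds), as deposited. Replicate 2 is highest in both groups. Within each pair the filled fosB-null circle lies 0.037 to 0.058 below the wild-type one.

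Exact ties were frequent among these genes too. In pairs 1, 2 and 3, 34.9%, 34.9% and 37.2% of members were tied, beside 62.3%, 54.7% and 56.0% of tested probe sets and 50.2%, 42.8% and 44.1% of those above the dimmest 40%. No pair was tied for 16 members and all 3 for 3 members. Of the untied differences 82.1%, 96.4% and 85.2% were negative, beside 52.7%, 48.5% and 71.4% over all tested probe sets and 54.1%, 57.2% and 71.5% above the dimmest 40%. In pair 2, 27 members were lower and 1 higher. In pair 3, most untied probe sets of the whole array were lower as well.

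A further 91 genes were measured, of the respiratory chain, its assembly and the regulation of mitochondrial biogenesis. Their differences were small too, and 0 of the 91 passed limma at either the adjusted or the unadjusted threshold of 0.05. With the replicate block 6 of the 91 had an unadjusted p under 0.05, all lower, where 1.76% of all tested probe sets were lower at that threshold, and 0 an adjusted one. Complex II, which feeds electrons from succinate, was lower for 7 of 8 genes with a median of -0.075, and 4 were lower in every pair. Of all tested probe sets 5.57% were lower in every pair, and 9.12% of those above the dimmest 40%. Sdhaf1, an assembly factor, and Sdhd, a membrane anchor, differed by -0.11 and -0.076. Complex IV, the terminal oxidase, was lower for 22 of 24 genes with a median of -0.015, and 5 were lower in every pair. Its assembly factor genes Cox19 and Cox14 differed by -0.15 and -0.13. Among 12 assembly factors of complex I outside the Nduf symbols, 9 were lower and 1 higher, with a median of -0.026. In every pair 2 of the 12 were lower, and Timmdc1 differed by -0.079.

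Complex III was lower for 9 of 15 genes and complex V, the ATP synthase, for 11 of 17, with medians of -0.017 and -0.014. Lower in every pair were 0 genes of complex III and 1 of complex V. Regulators of mitochondrial biogenesis were lower for 11 of 15, with a median of -0.0052, and 0 were lower in every pair. Among them Nrf1, the factor whose motif is counted above, differed by -0.031 with a standard error of 0.070 and was tied in pairs 1 and 2. These lists contain different proteins of one pathway and its regulators, measured on the same 6 arrays, so their signs are not independent of those of complex I.

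**Figure D4:**
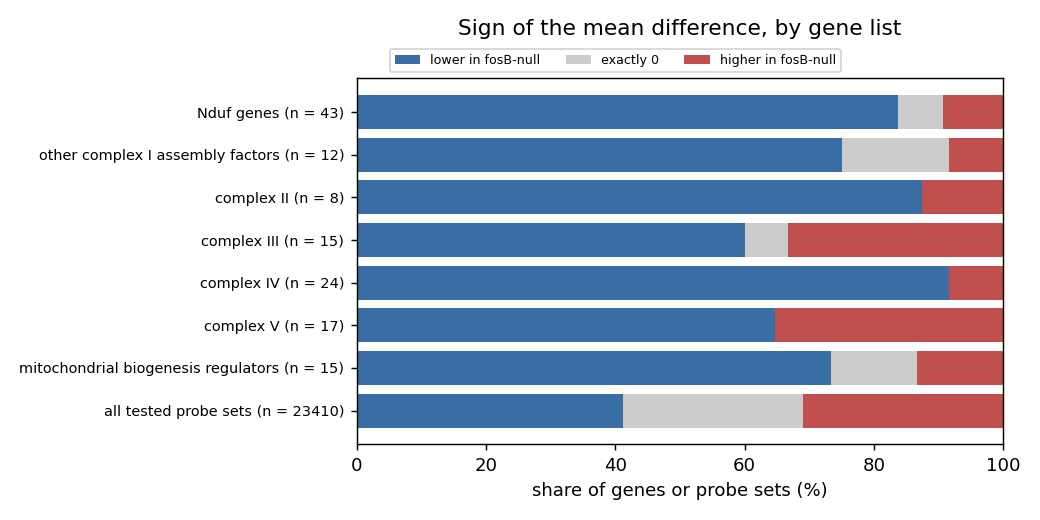
Share of genes (x axis, %) with a mean lower, exactly equal or higher in fosB-null arrays, for the Nduf genes, 6 other mitochondrial gene lists and all tested probe sets (y axis), as deposited. Of the Nduf genes 83.7% are lower, where 41.3% of all probe sets are. These become 74.4% and 71.9% after quantile normalization and 97.7% and 84.0% after median centring. Median centring turns exact ties into lower values by construction.

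The members are spread over 15 chromosomes, and all 43 were found in the RefSeq gene table. On chromosome 7, which carries Fosb, lie Ndufa3, Ndufc2 and Ndufab1, at 229, 731 and 1154 measured genes from it. They differed by -0.017, -0.026 and -0.0052, and none of them passed the test.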

How the data were processed

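RNA of 6 microglial cultures (100 ng each, per the labels) was measured on Affymetrix whole-transcript arrays. The authors deposited 1 log2 signal per probe set and array, which the submitters' processing notes link to Affymetrix Expression Console. How it summarised and normalized the probes was not given in the sources used here. The log2 scale follows from the range of the values (1.73 to 14.6). The arrays have no count of depth, so their number limits the precision.

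Symbols came from the platform table: 21789 probe sets had 1, 1621 several and 12147 none. Limma 3.58.1 in R 4.3.3 (two-sided, no block, no filter) was fitted to the 23410 with a symbol. Differences are fosB-null minus wild-type, errors are standard errors of that fit, and p-values are moderated and Benjamini-Hochberg adjusted over all 23410, with a threshold of 0.05. The fit was tested on simulated data with independent arrays and planted differences far larger than those of the members. Those data held no pairs and no exact ties, so that test does not show how the fit handles such differences here. Replicate numbers pair the samples: the deviations of same-numbered arrays from their group means correlated at 0.911, 0.821 and 0.820. What a number marks is not in the labels.

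Members and lists were chosen with earlier results of these data known. Values in every array are given for up to 6 members per direction by lowest p, the core subunits, Ndufa4 and Ndufa4l2, and the 3 with the largest wild-type standard deviation, and others were added after their values were seen. Of other lists, genes among the 3 with the lowest p are named. Promoter motifs were searched as exact letters on both strands. Alternatives were other scalings, filters, tested sets, variance priors, array weights, replicate blocks, probe set averaging, and left-out arrays.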

Additional observations from a re-analysis of the deposited data

How the results depend on the processing

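No member was called at an adjusted p under 0.05 in any of 21 alternatives, a threshold of 0.1 among them. The count at an unadjusted p under 0.05 was 0 as reported, 5 with the replicate block, 12 with it as a random effect, and 0 to 1 with single arrays or pairs left out (Ndufs5, without wild-type replicate 3). The median difference over members was -0.0268 as reported, -0.0333 with quantile normalization, -0.0508 with median centring and between -0.0889 (without fosB-null replicate 2) and 0.00105 (without wild-type replicate 2) with arrays or pairs left out. It was -6.67e-05 without fosB-null replicate 3. With arrays or pairs left out, the number of members lower ranged from 21 (without wild-type replicate 2) to 41. The number lower in every pair, an alternative added after the data were seen, was 13 as reported, 20 with quantile normalization, 39 with median centring, and 15 to 17 without a pair. The share of all tested probe sets was 5.57%, 43.6%, 69.5% and 9.53% to 10.4% in the same order, and without a pair only 2 pairs have to be lower. Leaving out 1 array of a pair leaves that replicate number in 1 group only, which moves the value by construction. Median centring lowers every difference within a pair, exact ties included, so its counts rise by construction. The cause of the change with quantile normalization was not tested. With 3 arrays per group, the 95% half-widths were 0.15 to 0.56 on the log2 scale. Without the pairing, a measured difference smaller than a gene's half-width cannot reach a limma unadjusted p under 0.05. A call at the adjusted threshold needs a larger difference still.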
